A study of Mus musculus with 12 samples.

Results

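The relative position of INO80 and H2A.Z peaks is described for spermatogenic cells from testes of mice on postnatal day 18, as mapped by ChIP-seq, the sequencing of DNA pulled down with an antibody. Every INO80 peak and every wild-type H2A.Z peak that shared at least 1 bp on chromosomes 1 to 19 and X formed a pair. There were 16199 pairs, made by 15050 of 18117 INO80 peaks and 15967 of 33818 H2A.Z peaks. Of the peaks deposited, 22 INO80 and 9 H2A.Z peaks lay on chromosome Y and were not paired. The INO80 antibody (ab105451) was used on cells with the genotype "Wild type" and the H2A.Z antibody (ab4174) on cells with the genotype "Ino80WT", all of mixed background. The series holds 12 libraries in 6 groups of 2, namely both ChIPs, H2A.Z ChIP from "Ino80cKO" cells, in which Ino80 was removed in the testis through Stra8-Cre, and an input for each. A list stands for both libraries of its group, so no value below has a spread between libraries, and whether the 2 libraries of a group are 2 animals is not in the labels. Cells were released from the tubules by collagenase and trypsin, fixed with formaldehyde and digested with micrococcal nuclease (MNase), an enzyme that cuts between nucleosomes. A digest of this kind holds germ cells of several stages and can hold somatic cells, and a peak list cannot show which cells gave a peak. A site bound weakly in all cells and a site bound in few cells cannot be told apart.

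INO80 powers a large remodelling complex that slides nucleosomes along DNA, and it has been described to exchange H2A.Z for the canonical histone H2A. H2A.Z, a histone variant, is placed in nucleosomes by the SRCAP and EP400 complexes, and it is known for marking the nucleosomes on either side of active and poised promoters, the first nucleosome of the gene body among them. How the 2 maps lie on each other at the same site, nested, staggered or side by side, is the question that the comparison addresses. The lists give only the chromosome, start and end of each peak, with no summit and no height, so all values below are about extent and position.

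The sequences of 4 promoters show what it means for the edge of a peak to fall next to a gene start. Each line gives the 250 bases before an annotated start, 5′ to 3′ along the gene, from RefSeq on GRCm38.p6. They were chosen among listed genes as the widest INO80 peaks with the arrangement named. In the first 2, capitals mark bases under the INO80 peak, while an H2A.Z peak covers the whole stretch. In the last 2, capitals mark bases under the H2A.Z peak, while an INO80 peak covers the whole stretch.
Dnmt3b (de novo DNA methyltransferase, plus strand, chr2:153649199-153649448): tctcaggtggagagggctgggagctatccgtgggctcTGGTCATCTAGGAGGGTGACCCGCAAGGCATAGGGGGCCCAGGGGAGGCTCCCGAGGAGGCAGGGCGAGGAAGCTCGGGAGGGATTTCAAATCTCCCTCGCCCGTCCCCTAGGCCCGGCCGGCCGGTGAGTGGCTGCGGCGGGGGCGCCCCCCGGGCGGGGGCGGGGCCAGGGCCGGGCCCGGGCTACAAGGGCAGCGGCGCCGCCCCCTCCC
Pcgf5 (polycomb ring finger protein, plus strand, chr19:36409498-36409747): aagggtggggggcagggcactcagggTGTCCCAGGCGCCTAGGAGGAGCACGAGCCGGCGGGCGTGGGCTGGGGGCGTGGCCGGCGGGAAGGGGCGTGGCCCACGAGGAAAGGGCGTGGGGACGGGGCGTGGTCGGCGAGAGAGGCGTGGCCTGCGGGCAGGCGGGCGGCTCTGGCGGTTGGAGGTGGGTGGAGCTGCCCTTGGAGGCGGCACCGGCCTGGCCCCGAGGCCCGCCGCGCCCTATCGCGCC
Cbx7 (polycomb chromodomain protein, minus strand, chr15:79932647-79932896): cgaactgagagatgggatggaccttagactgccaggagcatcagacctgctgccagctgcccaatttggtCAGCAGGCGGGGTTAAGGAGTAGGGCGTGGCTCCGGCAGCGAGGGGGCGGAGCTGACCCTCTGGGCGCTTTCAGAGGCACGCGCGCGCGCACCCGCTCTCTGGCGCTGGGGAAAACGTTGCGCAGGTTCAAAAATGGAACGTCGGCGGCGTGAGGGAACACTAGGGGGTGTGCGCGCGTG
Ddx4 (germ cell RNA helicase, minus strand, chr13:112652311-112652560): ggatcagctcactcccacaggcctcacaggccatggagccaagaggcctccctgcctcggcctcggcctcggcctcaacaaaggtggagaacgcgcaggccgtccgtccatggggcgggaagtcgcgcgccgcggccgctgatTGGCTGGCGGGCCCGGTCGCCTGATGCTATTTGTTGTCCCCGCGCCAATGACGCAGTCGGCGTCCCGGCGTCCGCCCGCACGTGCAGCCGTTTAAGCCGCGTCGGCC
At Dnmt3b the INO80 peak was 964 bp wide and the H2A.Z peak 1684 bp, and 213 of the 250 bases were under INO80. At Pcgf5 the widths at the start shown were 873 and 1204 bp, and 224 of the bases were under INO80. At Cbx7 an H2A.Z peak of 610 bp began inside an INO80 peak of 1027 bp and covered 180 of the bases. At Ddx4 an H2A.Z peak of 571 bp lay inside an INO80 peak of 922 bp and covered 107 of the bases. The pattern of Dnmt3b and Pcgf5, with the INO80 edge falling within a window from 250 bases before the start to 50 bases from it and H2A.Z across all of it, was found at 1150 of 6644 starts (17.3%, 95% Wilson interval 16.4 to 18.2%). The pattern of Cbx7 and Ddx4 was found at 451 of them (6.79%, 6.21 to 7.42%), and both peaks covered the whole window at 1985 (29.9%). These 6644 starts were those of pairs with 1 start within 1 kb, in which each peak had no other partner. Intervals here and below cover counting error over peaks only, and neighbouring peaks are not independent.

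All 3 ways in which 2 peaks can lie were common, and H2A.Z inside INO80 was the most frequent. The INO80 peak lay wholly inside the H2A.Z peak in 4771 pairs (29.5%, 28.8 to 30.2%), the H2A.Z peak lay wholly inside the INO80 peak in 6425 (39.7%, 38.9 to 40.4%), and the peaks were staggered, each reaching past the other on a different side, in 5003 (30.9%, 30.2 to 31.6%). In 13578 pairs (83.8%) the peaks were each other's only partner, and in these the median ratio of INO80 to H2A.Z width was 0.995 (0.985 to 1.01). The median width over the whole INO80 list was 678.0 bp, and the widest INO80 and H2A.Z peaks were 23986 and 4351 bp. Of 33818 H2A.Z peaks, 17851 had no partner, and these had a median of 310.0 bp. Widths separated the classes: the median INO80 and H2A.Z widths were 387 and 906 bp where INO80 lay inside, 1579 and 604 bp where H2A.Z lay inside, and 756 and 739 bp where they were staggered. With only the widest 50% of each list, INO80 lay inside H2A.Z in 14.4% of pairs. Peaks without a partner were narrower than paired ones in both lists, at a median of 275 bp against 771 bp for INO80 and 310 bp against 747 bp for H2A.Z.

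Midpoints lay close together. The median distance between the midpoints of a pair was 127 bp (124.5 to 130.0 bp, quartiles 52.0 and 257.0 bp), less than the length of DNA wrapped in a nucleosome, to which the smallest peak width in both lists is equal. They were within 50 bp in 24.2% of pairs, within 200 bp in 66.3% and within 500 bp in 90.4%. As the peaks of a pair overlap by definition, their midpoints cannot be further apart than 50% of the summed widths. What the overlap rule alone would give was not tested. The INO80 midpoint itself lay under H2A.Z for 13296 of the 15050 paired INO80 peaks (88.3%, 87.8 to 88.9%). Where a peak was nested, it could sit anywhere along the free length of the wider peak, and even placement puts 50% in the middle 50% of it. Nested H2A.Z peaks were in that middle part in 54.7% of 4737 only-partner pairs (53.3 to 56.2%), and nested INO80 peaks in 46.3% of 4481 (44.9 to 47.8%). H2A.Z inside INO80 was thus more central than even placement, and INO80 inside H2A.Z somewhat nearer an edge.

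For each arrangement, the named examples are the widest only-partner pairs at a listed start of a named gene. Wider pairs occur elsewhere, with INO80 of up to 19465 bp around an H2A.Z peak. INO80 lay inside H2A.Z at Etv1, which encodes an ETS factor (779 bp in 2777 bp), at Kmt2c, which encodes an H3K4 methyltransferase (2136 in 2637 bp), and at Axin2, a feedback inhibitor of Wnt signalling (2176 in 2339 bp). A small H2A.Z peak lay inside a broad INO80 peak at Neurog3, a proneural factor also made in differentiating spermatogonia, where 305 bp of H2A.Z lay 2585 bp from the midpoint of 7737 bp of INO80 and covered 3.94% of it. Gsx1 and Helt, both encoding developmental transcription factors, followed with 10.2% of 6200 bp and 8.83% of 6149 bp covered. Within the same limit, the widest staggered pairs were at Fzd7, a Wnt receptor, at Zfpm1, a GATA cofactor, and at Alcam, an adhesion molecule, where H2A.Z covered 65.0%, 24.6% and 40.9% of the INO80 peak and reached past a single edge of it.

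**Figure D1:**
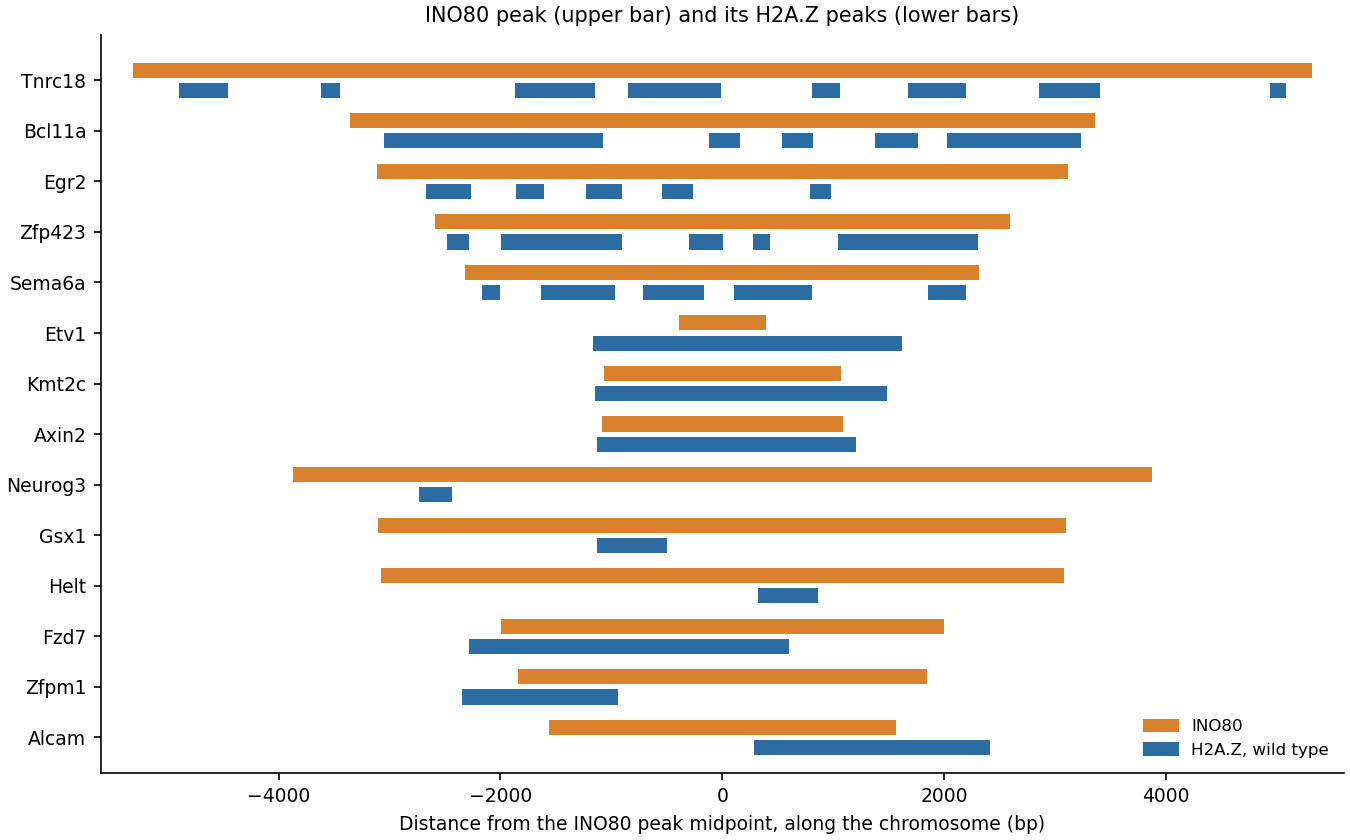
INO80 peaks (upper bars) and their wild-type H2A.Z peaks (lower bars) at 14 named genes, by distance in bp from the INO80 midpoint along the chromosome. The first 5 rows are the INO80 peaks with the most H2A.Z peaks, from 8 at Tnrc18 to 5 at the others, and the next 9 are the widest only-partner pairs with INO80 inside, H2A.Z inside and staggered, 3 of each.

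Most INO80 peaks had a single H2A.Z partner, and several partners were a feature of the broadest ones. Of the 15050 paired INO80 peaks, 14033 had 1 H2A.Z peak, 913 had 2, 84 had 3, 15 had 4, 4 had 5 and 1 had 8, so that 1017 (6.76%, 6.37 to 7.17%) had 2 or more. The share was 2.49% after H2A.Z peaks less than 500 bp apart were joined and 3.49% in the widest 50% of each list. The reverse was rarer: 230 of 15967 paired H2A.Z peaks (1.44%, 1.27 to 1.64%) had 2 or more INO80 peaks. The INO80 peak with 8 H2A.Z peaks was 10631 bp wide near the start of Tnrc18, and its H2A.Z peaks of up to 835 bp covered 34.4% of it. Bcl11a and Zfp423, which encode zinc finger factors, had 5 each, over 61.4% of 6718 bp and 57.9% of 5178 bp. Egr2, an immediate-early zinc finger factor, had 5 narrow ones of 192 to 400 bp over 23.1% of 6225 bp, and Sema6a, a semaphorin, had 5 over 52.5% of 4631 bp. On the other side, an H2A.Z peak of 2073 bp at Il3ra, a cytokine receptor subunit, and one of 1956 bp with Ppp2r3d as the nearest gene, 53257 bp away, each overlapped 3 INO80 peaks. H2A.Z peaks of 4200 bp near Tchh, 3531 bp at Jun, an AP-1 subunit, and 3196 bp at Sfmbt2, a polycomb-like MBT protein, each overlapped 2. At these last 3 an INO80 peak reached past the H2A.Z peak, and at Sfmbt2 it was the wider, with 4947 bp.

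Where an INO80 peak spanned exactly 2 H2A.Z peaks, the pair of H2A.Z peaks left a gap near the INO80 centre. The centre of the gap was in the middle 50% of the INO80 peak in 814 of 913 (89.2%, 87.0 to 91.0%), and the INO80 midpoint fell in the gap itself in 469 (51.4%, 48.1 to 54.6%). Both H2A.Z peaks were inside INO80 in 547 (59.9%), and in 85 (9.31%) an H2A.Z peak crossed each edge. A centred gap is favoured by the geometry, since a gap has an H2A.Z peak on either side, so these shares are a description only. Over all 1149 gaps the median was 399 bp (380 to 419 bp) and the smallest 251 bp. The smallest gap between neighbours anywhere in the H2A.Z list was the same, so the list cannot show a narrower one. Of 589 such INO80 peaks with a listed start inside, the start lay in the gap in 274 (46.5%, 42.5 to 50.6%).

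Width went with the arrangement from end to end of the INO80 list. INO80 lay inside H2A.Z for 76.5% of paired peaks in the narrowest 10% of the list (up to 187 bp), for 31.9% at 679 to 868 bp and for 0.410% in the widest 10% (2040 to 23986 bp). INO80 enclosed all its H2A.Z peaks for 0.592%, 28.0% and 85.9% of the same groups. Peaks with 2 or more H2A.Z partners made up 31.9% in the widest 10% (29.8 to 34.2%). In the narrowest 10% the share was 0% in advance, as no gap between H2A.Z peaks was under 251 bp. A wider INO80 peak also has more room for several H2A.Z peaks, so this trend is partly given by geometry. Nesting by width is partly given by geometry, as a narrow peak cannot enclose a broad one. Of 551 INO80 peaks of 3000 bp or more, 506 had H2A.Z, none of these lay inside an H2A.Z peak, 89.5% enclosed theirs, and the INO80 midpoint was under H2A.Z in 55.3%.

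**Figure D2:**
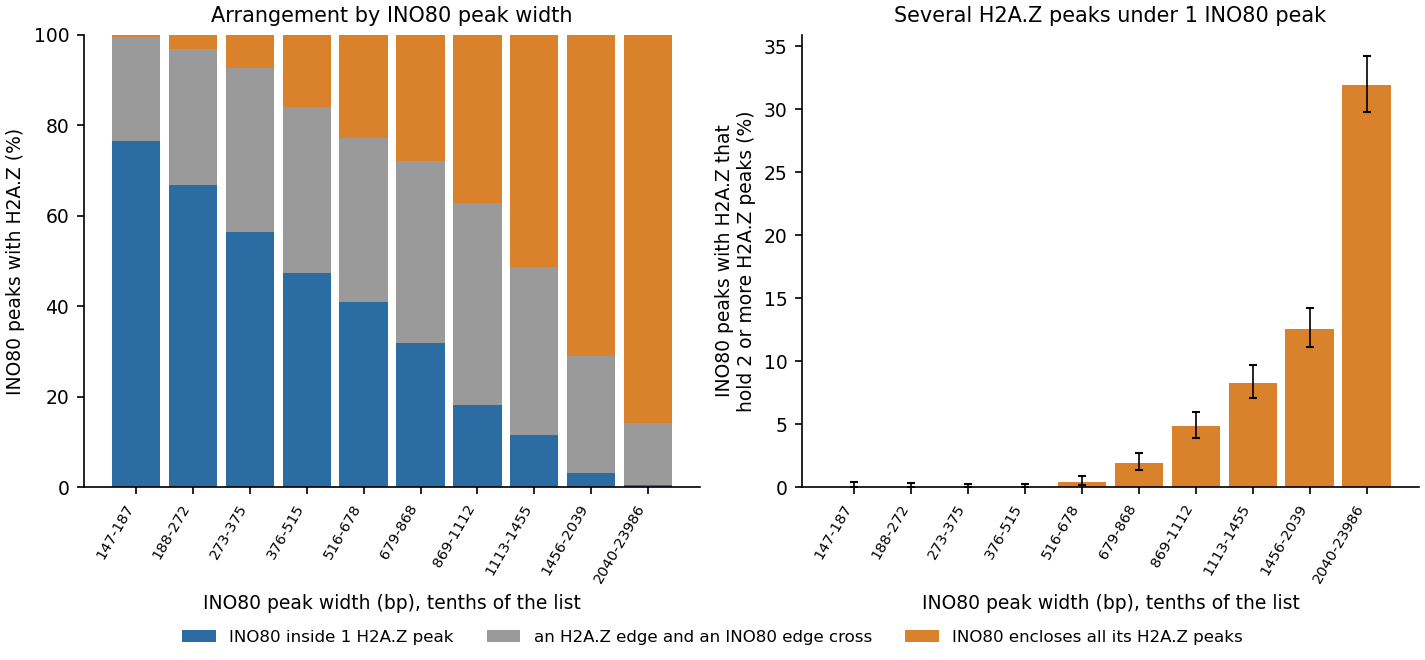
Left, share (%) of paired INO80 peaks in each arrangement with wild-type H2A.Z, by INO80 peak width in bp, in 10 groups of nearly equal number; right, share with 2 or more H2A.Z peaks, with 95% Wilson intervals. INO80 inside H2A.Z goes from 76.5% to 0.410% from the narrowest to the widest group, and 2 or more partners reach 31.9% in the widest. In the narrowest group, of up to 187 bp, the 0% is given in advance, as no gap between H2A.Z peaks is under 251 bp.

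Within INO80 peaks, H2A.Z covered the middle more than the outer parts, and INO80 did the same within H2A.Z peaks. Over all 18117 INO80 peaks, paired or not, H2A.Z peaks covered 72.6% of the bases in the middle 20% of the peak width and 44.0% in the outermost 20% on either side, a difference of 28.6 percentage points (27.8 to 29.4 over peaks). The difference was 4.49 points for INO80 peaks of up to 320 bp, 14.3 for 321 to 678 bp, 23.4 for 679 to 1264 bp and 36.6 for 1265 to 23986 bp, and the middle was above the outer parts in each. In the other direction, INO80 peaks covered 57.2% of the middle 20% of all H2A.Z peaks and 44.4% of their outermost parts, and 87.8% and 68.2% of those of paired H2A.Z peaks. The central excess was seen in both directions, and it was not tested whether it is greater in either. For paired peaks it is partly given by geometry, since peaks chosen because they overlap tend to cover each other's middle. The rise with INO80 width is partly geometric too, as an H2A.Z peak can span a narrow INO80 peak from end to end. What overlap alone would give was not tested. The broadest group had less H2A.Z in its middle 20% (68.5%) than the groups of 321 to 678 bp (81.0%) and 679 to 1264 bp (80.5%), and 31.9% in its outer parts. At gene starts the cover was 78.8% in the middle and 48.5% outside, and elsewhere 54.7% and 30.8%. Over the 15050 paired INO80 peaks alone it was 80.6% and 48.8%.

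**Figure D3:**
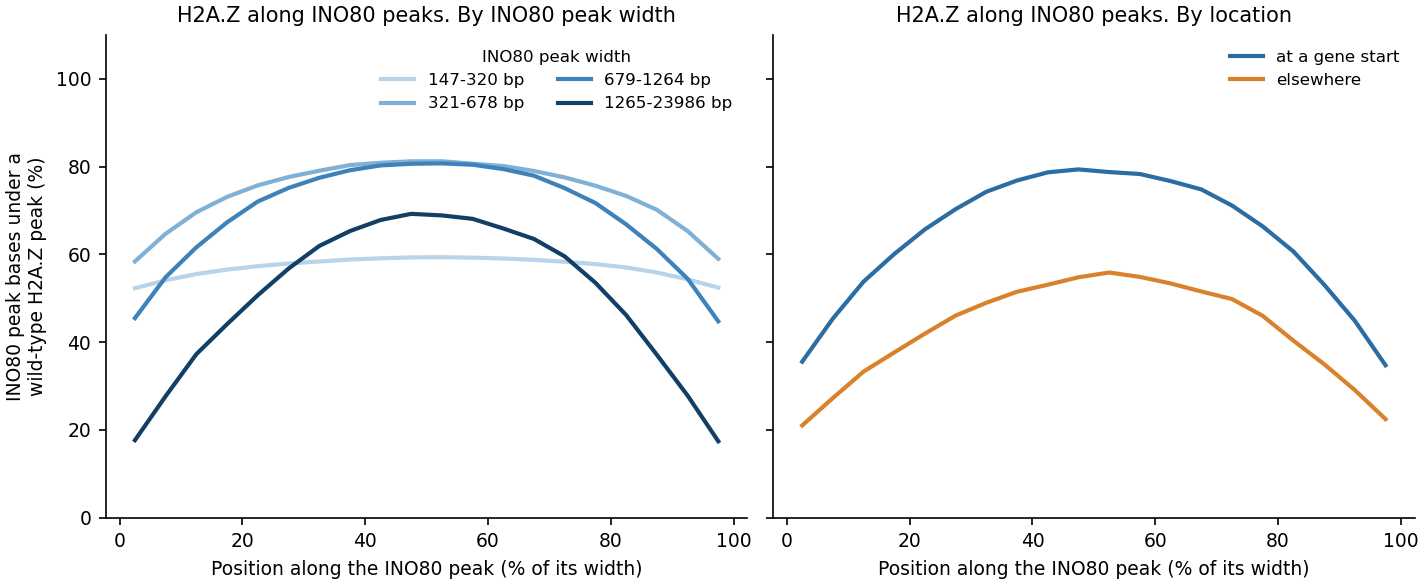
Share (%) of INO80 peak bases under a wild-type H2A.Z peak along the INO80 peak, from its left edge on the chromosome (0%) to its right edge (100%), in steps of 5% of its width. Left, 4 groups of INO80 width; right, peaks at a gene start and elsewhere. All curves are highest near the centre, and the widest group has the deepest fall at the edges.

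Gene starts had more INO80 peaks within H2A.Z and more INO80 peaks with several H2A.Z partners than other sites. A peak counted as at a gene start when it came within 1 kb of a start that RefSeq promoters list, or of either end of a protein-coding gene with no start listed there. INO80 lay inside H2A.Z for 3709 of 11419 paired peaks at starts (32.5%) and 1062 of 3631 elsewhere (29.2%), an odds ratio of 1.16 (1.07 to 1.26, two-sided Fisher's exact test, p = 0.000268). Within 10 groups of INO80 width, the same odds ratio was 1.87 (1.70 to 2.06, Mantel-Haenszel test). Over all INO80 peaks, paired or not, the median width was 784 bp at starts and 452 bp elsewhere. In the group of 679 to 1264 bp, for example, 25.4% of paired peaks at starts and 11.9% of those elsewhere lay inside H2A.Z. In the same group 31.0% and 52.3% enclosed it. H2A.Z peaks of pairs were also wider at starts, with a median of 817 bp against 599 bp elsewhere. In this group the medians were 880 and 659 bp. H2A.Z width was not taken out of these odds ratios, and its part in them was not tested. When either end of any protein-coding gene was used in place of starts, Fisher's exact test no longer passed (odds ratio 1.07, 0.988 to 1.15, p = 0.0948). Several H2A.Z peaks were found under 866 INO80 peaks at starts (7.58%) and 151 elsewhere (4.16%), which gave p = 7.53e-14 in Fisher's exact test and an odds ratio of 1.89 (1.58 to 2.27). Within the 10 groups of INO80 width, this odds ratio was lower, at 1.49 (1.23 to 1.81). These tests compare peaks of a list with each other, not animals.

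By the distance of the INO80 midpoint from the nearest start, the share with H2A.Z was 96.3% within 250 bp, 94.6% from 250 to 500 bp and 84.1% from 500 to 1000 bp. It was lowest from 1000 to 2000 bp, at 57.2%, and 60.9%, 67.9% and 64.1% in the bins to 10000 bp, to 50000 bp and beyond. INO80 lay inside H2A.Z for 42.0% of paired INO80 peaks within 250 bp and in 13.2% from 500 to 1000 bp, and it was inside in 31.1% from 10000 to 50000 bp. Peaks with 2 or more H2A.Z partners were most frequent from 1000 to 2000 bp (128 of 607, 21.1%) and made up 5.55% within 250 bp. The median midpoint distance of a pair was 102.5 bp within 250 bp of a start, 292.0 bp from 1000 to 2000 bp and 109.5 bp beyond 50000 bp. Width differed between some of these bins. Over all INO80 peaks, paired or not, the median width was 679.5 bp within 250 bp, 1386 bp from 500 to 1000 bp and 671.5 bp from 1000 to 2000 bp. The part of width in the trend was not tested.

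Read along the direction of transcription, H2A.Z lay upstream of INO80 more often than downstream. Among 8387 paired INO80 peaks near starts of 1 strand only, the mean H2A.Z midpoint was upstream of the INO80 midpoint in 5282 (63.0%) and downstream in 3105 (37.0%, 36.0 to 38.1%, two-sided exact binomial test against an even division, p = 3.3e-126). The shift was small against the peak widths, with a median of -48.0 bp (-52.5 to -43.0 bp). It was -15.0 bp for INO80 peaks of up to 320 bp and -87.5 bp for those of 1265 bp or wider. Downstream shares were 37.0% for genes on either strand, and 36.3% where no other gene began or ended within 2 kb of the start.

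The edges of the peaks show on which sides they differed. In 7560 only-partner pairs, the H2A.Z peak began at a median of -318.0 bp from the start and the INO80 peak at -217.0 bp. On the downstream side the H2A.Z peak ended at 536.0 bp and the INO80 peak at 568.0 bp, with upper quartiles of 710.0 and 881.2 bp. H2A.Z reached further upstream and INO80 further downstream in 1585 pairs (21.0%, 20.1 to 21.9%), and the opposite stagger was found in 827 (10.9%, 10.3 to 11.7%). Which edge reached further turned over with width: H2A.Z reached further upstream in 83.7% of pairs with INO80 of up to 320 bp and in 22.6% of those with 1265 bp or more, while INO80 reached further downstream in 13.9% and 90.5%. This turnover is partly given by geometry, as the wider peak of a pair tends to reach past the other on both sides. Over 7423 starts near only-partner pairs, both maps were highest 150 bp into the gene, about where the first nucleosome of the gene body lies. There 91.8% of starts were under INO80 and 92.1% under H2A.Z. High cover by both near these starts is partly given, since a pair lies near each. At 250 bp upstream 60.1% of starts were under H2A.Z and 45.3% under INO80, while at 875 bp downstream 13.3% were under H2A.Z and 26.1% under INO80. Far upstream the order changed, and at 1000 bp 6.93% of starts were under INO80 and 4.42% under H2A.Z.

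**Figure D4:**
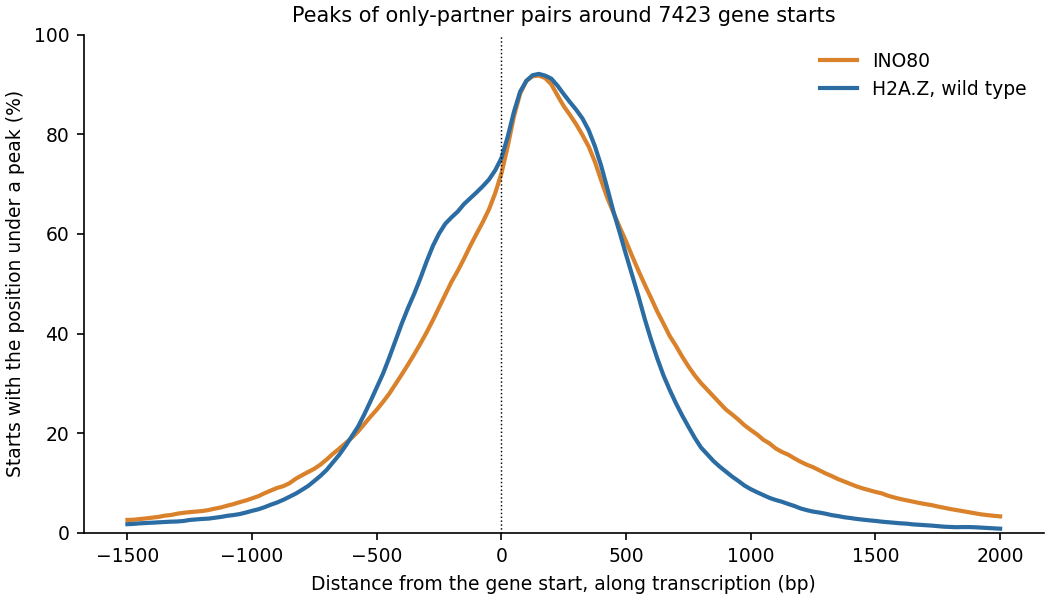
Share (%) of 7423 gene starts at which a position, in bp from the start along transcription, is under the INO80 peak or the wild-type H2A.Z peak of an only-partner pair. Both curves peak 150 bp downstream; H2A.Z has a shoulder upstream of the start, and INO80 has the longer downstream tail.

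Genes that work in chromatin and germ cells were then read list by list, by the widest INO80 peak at each gene's start. Of 21627 protein-coding genes, 12229 had INO80 at the start, and 11741 of these also had H2A.Z. Over those 11741 genes, INO80 lay inside H2A.Z at 32.0%, enclosed its H2A.Z peaks at 35.1% and crossed an H2A.Z edge at 32.9%. It had 2 or more H2A.Z peaks at 8.07%. Their median INO80 width was 844.0 bp. Because width goes with arrangement, each list is also set beside the count that all genes give in the same groups of INO80 width, 10 groups of equal number. Genes share peaks in places, and the lists were not tested.

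Along the gene, the lists spread to both sides of the share over all genes. H2A.Z was upstream of the INO80 midpoint at 63.6% of 8095 genes whose starts lie on 1 strand, with a median of -51.5 bp. The lists ran from 41.7% of 12 piRNA pathway genes (19.3 to 68.0%, median 11.5 bp downstream), 8 of 16 spermatogonial genes and 52.5% of 40 developmental regulators to 71.4% of 28 ribosomal protein genes (52.9 to 84.7%), 78.6% of 14 genes of H3K4 methylation (52.4 to 92.4%) and 4 of 5 spermiogenesis genes. The 95% Wilson interval of every list held the share of all genes.

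Developmental regulators, the homeobox, Wnt and other patterning factors that polycomb keeps silent in many cells, had broad INO80 with H2A.Z inside it. Of 72 genes, 71 had INO80 at the start and 61 had H2A.Z in it. Over all 21627 protein-coding genes these counts were 12229 and 11741. INO80 enclosed all its H2A.Z at 52 of the 61 and lay inside H2A.Z at 0, against 46.2 and 3.60 for all genes in the same width groups. There were 2 or more H2A.Z peaks at 27, against 17.7. That share, 44.3%, was 18.8% with the widest 50% of each list and 31.1% after H2A.Z peaks were joined. The median INO80 width was 3104 bp. Width is not fully taken out of these counts, since the widest of the 10 groups holds peaks of very unlike width. Over all paired INO80 peaks, 2 or more partners were found in 31.9% of the widest 10% and in 56.1% of those of 3000 bp or wider. Skor1, a transcriptional corepressor, had 3 H2A.Z peaks of 160 to 247 bp under 9825 bp of INO80, which covered 6.18% of it. At Ebf2, a helix-loop-helix factor, 3 H2A.Z peaks covered 10.6% of 8895 bp, and at Lbx1, a homeobox factor, 3 covered 20.2% of 7861 bp.

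Spermatogonial genes had broad INO80 peaks and meiotic genes narrow ones, and the arrangements were close to what these widths give. Among 26 genes of spermatogonia and meiotic entry, INO80 enclosed its H2A.Z at 15, lay inside at 4 and had several H2A.Z peaks at 8, with a median width of 2148 bp (16.5, 3.38 and 5.62 from widths alone). Lhx1, a homeobox factor of stem spermatogonia, held 4 H2A.Z peaks over 20.4% of 7024 bp, and Eomes, a T-box factor, held 1 over 24.4% of 4463 bp. Some of these genes, Neurog3 and Lhx1 among them, are also on the list of developmental regulators. With the widest 50% of each list, none of the spermatogonial INO80 peaks had several partners. Among 26 genes of meiotic recombination and synapsis with both peaks, INO80 lay inside H2A.Z at 15, crossed at 9 and enclosed it at 2, against 13.1, 8.77 and 4.16 from their widths, and the median width was 578.5 bp. With the widest 50% of each list the share inside went from 57.7% to 28.6%. At Dmc1, the meiotic strand exchange recombinase, INO80 of 961 bp lay inside H2A.Z of 1066 bp with nearly the same midpoint. Meioc, needed for the meiotic programme, had INO80 88.5% under an H2A.Z peak of 1330 bp, and Sycp2, a synaptonemal complex protein, had 2 H2A.Z peaks of 165 and 191 bp over 40.3% of 874 bp.

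The piRNA pathway genes, which silence transposons in the germ line, had INO80 inside H2A.Z at 7 of 14, enclosing it at 5 and crossing it at 2 (6.31, 2.80 and 4.89 from widths). Mybl1, the transcription factor that drives pachytene piRNA precursors, had INO80 of 1084 bp inside H2A.Z of 1420 bp. Dazl, a germ cell RNA-binding protein, had 2 H2A.Z peaks over 32.6% of 1545 bp, and Ddx4 is described with its promoter above. Of 40 spermiogenesis genes, which are used after meiosis, 11 had INO80 at the start, against 12229 of 21627 protein-coding genes. All 11 had H2A.Z, with INO80 inside at 4, enclosing at 4 and crossing at 3. Hspa1l, Odf2 and Tssk6, which encode a testis chaperone, an outer dense fibre protein and a sperm kinase, had 40.2%, 56.8% and 91.3% of 2897, 1971 and 1886 bp covered.

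Markers of Sertoli, Leydig and peritubular cells, the somatic cells of the testis, had INO80 at 16 of 38 starts, against 12229 of 21627 protein-coding genes. INO80 enclosed its H2A.Z at 10 of 14 genes with both, lay inside at 1 and crossed at 3, against 8.02 enclosing and 2.18 inside from widths. Insl3, a Leydig cell hormone, had 5468 bp of INO80 with no H2A.Z peak in it. Gdnf, a Sertoli cell factor for stem spermatogonia, had 3 H2A.Z peaks over 42.4% of 4661 bp, and Sox9, the Sertoli cell determinant, had 4 over 44.8% of 4432 bp. Whether these peaks come from somatic cells was not tested.

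Ribosomal protein and polycomb genes had staggered INO80 and H2A.Z edges at most starts. At 44 ribosomal protein genes with both peaks, INO80 crossed an edge at 26, enclosed at 15 and lay inside at 3, against 17.0, 9.77 and 17.2 from widths, and the median width was 657.5 bp. Rpl10a had H2A.Z over 54.2% of 1274 bp of INO80, shifted upstream by 314.0 bp, and at Rpl7 INO80 of 1525 bp lay inside 1622 bp of H2A.Z. At 32 polycomb genes INO80 crossed an edge at 19, enclosed at 12 and lay inside at 1, against 11.1, 14.5 and 6.40, with a median width of 1140 bp. Phf19, a Tudor protein of the complex that methylates H3K27, had 53.2% of 2712 bp covered, and Epop, an elongin-binding subunit, 65.3% of 2574 bp.

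Genes of the INO80 complex itself and of H2A.Z turnover covered all 3 arrangements. At 11 genes for INO80 complex subunits INO80 lay inside H2A.Z at 5, enclosed it at 4 and crossed at 2 (3.86, 3.63 and 3.51 from widths). Yy1, a DNA-binding subunit of the complex, had 2 H2A.Z peaks of 315 and 233 bp over 21.0% of 2612 bp. Ino80d had 81.7% of 2051 bp covered, and Ino80 had 2 H2A.Z peaks over 69.6% of 1390 bp. At 19 genes for H2A.Z and for its loading and removal, INO80 enclosed H2A.Z at 10, crossed at 6 and lay inside at 3 (5.64, 6.39 and 6.97 from widths). H2az1, which encodes the main H2A.Z protein, had 2 H2A.Z peaks, the wider of 372 bp, over 30.5% of 1704 bp. Epc2 and Mbtd1, subunits of the TIP60 complex, had 59.9% of 1927 bp and 59.4% of 1819 bp covered.

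Poised promoters carry H3K4 methylation beside H3K27 methylation. The list for H3K4 methylation and its removal, which also holds the H3K27 demethylase genes Kdm6a and Kdm6b, had 18 genes with both peaks. INO80 crossed an edge at 9, enclosed at 5 and lay inside at 4 (5.89, 6.83 and 5.28 from widths). Setd1b, a methyltransferase, had 2 H2A.Z peaks over 49.2% of 2413 bp. Hcfc1, a cofactor on chromosome X, had 188 bp of H2A.Z over 9.23% of 2036 bp, 917.0 bp upstream of the INO80 midpoint, while Kmt2c had INO80 wholly inside H2A.Z.

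**Figure D5:**
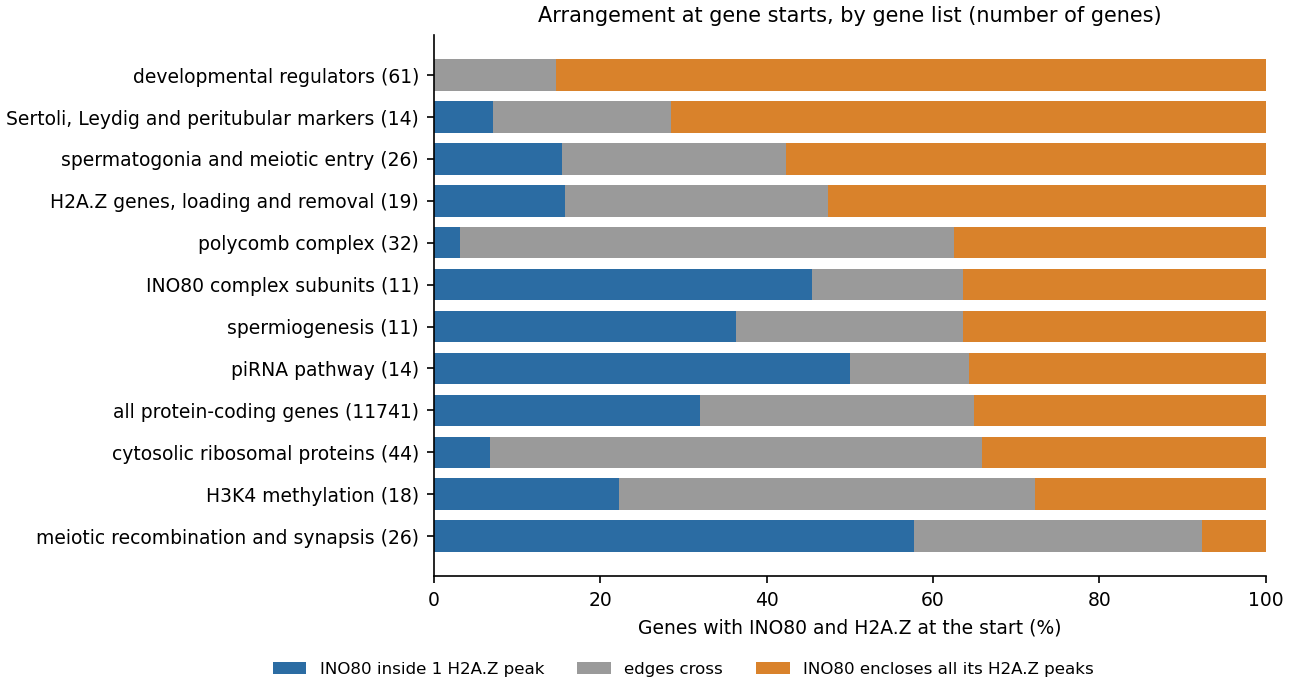
Share (%) of genes with INO80 and wild-type H2A.Z at the start in each arrangement, by gene list, with the number of genes in brackets. INO80 encloses its H2A.Z at 52 of 61 developmental regulators and at 2 of 26 genes of meiotic recombination and synapsis, against 35.1% over all protein-coding genes.

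Promoter sequence was compared with the arrangement over the 300 bases around each listed start. The median number of CpG dinucleotides was 3 at 9499 starts without INO80 and 15 at starts with INO80 but no H2A.Z. It was 22 where INO80 lay inside H2A.Z, and 24 where it enclosed it or crossed an edge. This order did not hold within groups of INO80 width. For inside, enclosing and crossing the medians were 18, 19 and 19 up to 320 bp, and 21 in all 3 from 321 to 678 bp. They were 27, 24 and 26 from 679 to 1264 bp, and 31, 25 and 29 at 1265 bp or wider. YY1 is both a subunit of the INO80 complex and a sequence-specific factor, so its core motif AANATGGC (GCCATNTT on the other strand) was searched on both strands. It was found at 6.42% of all 21044 listed starts and at 3.96% of those without INO80. Starts with INO80 but no H2A.Z, of which there were 437, held it at 8.70% (6.40 to 11.7%). With H2A.Z present, it was found at 7.22% of starts where INO80 lay inside (6.42 to 8.12%), at 7.92% where it enclosed (7.11 to 8.82%) and at 10.1% where it crossed an edge (9.17 to 11.1%). By width the order differed: from 321 to 678 bp the motif was at 14.2% of starts where INO80 enclosed (11.4 to 17.6%) and 8.07% where it lay inside, from 679 to 1264 bp at 13.5% and 7.01%, and at 1265 bp or wider at 4.02% and 7.35%. A match is not a bound site, and overlaps with other motifs were not examined.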

How the data were processed

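Per the submitters' processing notes, reads were handled with Bowtie2, SAMtools, deepTools and MACS2 on mm10, with versions and settings not given in the sources used here. What the authors deposited are peak lists of 3 columns (chromosome, start, end), 1 per ChIP group, with no score, count or depth, so the depth behind a peak is unknown. Peaks on chromosomes 1 to 19 and X were paired by an overlap of at least 1 bp (Python 3.11.15, pandas 2.3.3, numpy 2.4.6), and the pairs and overlapping bases equalled those of bedtools 2.31.1. Shares have 95% Wilson intervals and medians order-statistic intervals. Locations were compared with Fisher's exact test and sides with an exact binomial test (scipy 1.17.1), and width groups with the Mantel-Haenszel test (statsmodels 0.14.6). The interval of the cover difference uses the spread over peaks. The code was tested on simulated data with a known shift and odds ratio.

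Gene starts and promoter sequences came from RefSeq tables on GRCm38.p6, the same assembly as mm10. They list starts for 17273 of 21627 protein-coding genes (79.9%) and none on chromosome 18. Of 388 distinct list entries, 6 matched through an older symbol and 1 did not match. Genes were named by a rule: up to 3 members of a list with the widest INO80 peak, the 5 peaks of each kind with the most partners, and the 3 widest only-partner pairs of each arrangement, leaving out Gm and Rik names; some genes that the rule names are not reported here. The pairs, lists and rules were chosen with earlier results of these data known. Input libraries were not analysed here.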

Additional observations from a re-analysis of the deposited data

How the results depend on the processing

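Sides, and several H2A.Z peaks by location, kept their direction and passed under every alternative run, with odds ratios of 1.49 to 1.95 for several H2A.Z peaks and downstream shares of 34.4 to 37.6%. INO80 inside H2A.Z by location passed with odds ratios of 1.09 to 1.91 except with either gene end (1.07, Fisher's exact p = 0.0948). With an overlap of at least the smallest peak width, INO80 inside, H2A.Z inside and staggered made up 30.3, 40.9 and 28.8% of pairs. An overlap of at least 50% of the narrower peak gave 40.4% H2A.Z inside, 29.5% staggered, a midpoint distance of 124.0 bp and 6.28% of INO80 peaks with 2 or more partners. The widest 50% of each list gave 14.4, 52.7 and 32.9%, 3.49% with 2 or more partners and a middle excess of 31.4 points. Joining H2A.Z peaks less than 500 bp apart gave 33.2, 34.9 and 31.9%, 132.5 bp, 2.49% and 30.3 points. Splitting INO80 peaks into 3 parts in place of 5 gave 19.7 points. Shares with several partners thus moved by more than 1.5 times when peaks were joined or narrow ones removed, as both leave fewer peaks to count. Chromosomes 1 to 19 alone stayed within the intervals. Leaving out the ends of genes without a listed start, using only-partner pairs and using isolated starts were chosen after seeing the data. Over gene lists, 27 of 132 shares left their intervals, among them the share with several partners, which the widest 50% brought to 18.8% for developmental regulators, 4.17% for polycomb genes and 0% for every other list; these changes were also chosen after seeing the data. No paired analysis was possible because each list stands for both libraries of its group; for the same reason no replicate could be left out. Without depth, absence of a peak does not show absence of INO80 or H2A.Z.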

Other observations

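The same INO80 peaks were also set against the H2A.Z list from Ino80cKO cells, in which Stra8-Cre deletes Ino80 in the testis. Of the 15050 INO80 peaks with wild-type H2A.Z, 13846 (92.0%, 91.6 to 92.4%) also overlapped an H2A.Z peak of the knockout list, and 9948 of these (71.8%) had the same arrangement in both. INO80 lay inside H2A.Z at 33.0% with the wild-type list and 23.9% with the knockout list, and enclosed it at 34.9% and 43.1%. H2A.Z was upstream of the INO80 midpoint in 60.6% of 7958 peaks at starts of 1 strand with the knockout list, with a median of -37.0 bp (-41.5 to -32.5 bp). The knockout list covered 64.7% of the middle 20% of INO80 peaks and 36.7% of the outermost parts. The lists hold no depth, so a difference in cells and a difference in calling cannot be told apart.

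Chromosome X stood at the end of several ranges over chromosomes. Of its 388 INO80 peaks, 265 (68.3%) had H2A.Z, against 83.4% on chromosomes 1 to 19. Its pairs were staggered in 38.5%, against 27.8 to 34.2% on the others, and the middle of its INO80 peaks exceeded the outer parts by 16.5 percentage points, against 23.7 to 35.4 points. Its median INO80 width was 530.0 bp, against 682.0 bp. The median H2A.Z width of its pairs was 524.0 bp, against 759.0 bp. The part of width in these differences was not tested. At Rbbp7, an X-linked polycomb gene chosen after its values were seen, 703 bp of INO80 had no H2A.Z peak. The listed X-linked genes Hcfc1, Kdm6a and Kdm5c each had 1 H2A.Z peak.

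INO80 peaks without a partner were not always far from H2A.Z. Of these 3067 peaks, 563 (18.4%, 17.0 to 19.8%) had an H2A.Z peak within 500 bp and 1338 (43.6%, 41.9 to 45.4%) within 2000 bp.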
